A study of Homo sapiens with 2 samples.

Results

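The expression of 10 epithelial-mesenchymal genes was followed in RNA-seq of TFK1 cells, an established human cholangiocarcinoma cell line, after MBD2 knockdown. They are CDH1, the epithelial cadherin, the mesenchymal or matrix genes CDH2, VIM, FN1 and SPARC, and the transcription factors ZEB1, ZEB2, SNAI1, SNAI2 and TWIST1. Their rows were taken by gene symbol, 1 row per symbol, and all 10 were found among the 56638 genes of the deposited tables. The genes were chosen from the counts of these same libraries with earlier results known, SPARC among them for its difference between the libraries, so that their differences are a description and no independent evidence. The 2 libraries were made from total RNA, 1 from cells with knockdown of MBD2 (shMBD2) and 1 from negative control cells (shNC), and the labels give no treatment for either. Both are labelled by the shRNA their cells carried, which the study delivered by lentivirus with drug selection, and the labels do not name the shRNA of the knockdown library. MBD2 is a reader of DNA methylation, and the comparison asks which transcripts differ once it is depleted.

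In an epithelial-mesenchymal transition, epithelial cells give up E-cadherin junctions and take on vimentin filaments, N-cadherin and a fibronectin-rich matrix. The ZEB, SNAI and TWIST factors bind E-box sequences and are known to repress the E-cadherin gene. In carcinomas the programme is often partial, so that epithelial and mesenchymal genes are expressed side by side.

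The counts summed to 14728814 in shMBD2 and 14467406 in shNC. Log2FC is the log2 ratio of shMBD2 to shNC after TMM scaling, with a prior of 0.5 counts, and was read for the 17545 genes whose counts in the 2 libraries summed to 10 or more. All 10 genes passed that minimum. With 1 library per condition no difference has a replicate check, no p-value is given, and each interval is a 95% exact (Clopper-Pearson) interval of how the reads of a gene divided between the libraries. It covers counting error only, and reads without molecular identifiers are not independent molecules. MBD2 itself had 365 counts in shMBD2 and 1013 in shNC, which left 35.8% of the control level (log2FC -1.48, interval -1.66 to -1.31). Of the biliary markers, KRT7 was at 1160 TPM in shMBD2 and 1327 TPM in shNC, EPCAM at 11.3 and 16.9 TPM and KRT19 at 15.0 and 9.04 TPM. None of the 8 biliary markers differed by more than 1 on the log2 scale. Of all genes, 5.48% were above 1 and 5.07% below -1.

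Of the 10 genes, SPARC differed most. SPARC encodes osteonectin, a secreted protein that binds collagen and calcium and modulates the contact of cells with their matrix. It had 468 counts in shMBD2 and 10 in shNC, or 22.1 and 0.485 TPM. It was thus low in the control cells and at a middle level in the knockdown cells, and its place among all genes by TPM moved from 19565 to 6353. The ratio of its scaled counts was 46.5 and its log2FC 5.47 (interval 4.65 to 6.61), and on the log2(TPM plus 1) scale the difference was 3.96. It stood in position 15 of the 17545 genes by log2FC, and in position 5 of the 10917 genes that reached 100 counts in either library. In bulk RNA, more cells that express a gene and more RNA per cell cannot be told apart.

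At the locus, SPARC lies on the minus strand at chr5:151661096-151687165 (GRCh38, GENCODE 29). The deposited coordinates were not used for the positions printed here. They equal those of GENCODE 29 for 322 of 51019 genes matched by Ensembl identifier, and for 0 of the 10 genes. Overlaps of other genes with the 10 were read from the deposited coordinates. Since MBD2 binds methylated CpG, the promoter windows that RefSeq (GRCh38.p14) gives are shown for SPARC and for a pair of genes of the set that were high in both libraries, FN1 and VIM. Each runs from 250 bases before to 50 bases after the annotated start, 5′ to 3′ on the gene's strand, with every CpG in capitals. The SPARC window is chr5:151686866-151687165 (minus strand), that of FN1 chr2:215436019-215436318 (minus strand) and that of VIM chr10:17227991-17228290 (plus strand).
SPARC: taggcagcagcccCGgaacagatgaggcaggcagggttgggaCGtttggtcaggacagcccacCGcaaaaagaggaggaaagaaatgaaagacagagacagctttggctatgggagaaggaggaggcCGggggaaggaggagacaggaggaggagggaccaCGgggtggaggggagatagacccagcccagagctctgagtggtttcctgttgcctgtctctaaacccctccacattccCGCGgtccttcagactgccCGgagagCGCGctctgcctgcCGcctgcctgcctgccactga
FN1: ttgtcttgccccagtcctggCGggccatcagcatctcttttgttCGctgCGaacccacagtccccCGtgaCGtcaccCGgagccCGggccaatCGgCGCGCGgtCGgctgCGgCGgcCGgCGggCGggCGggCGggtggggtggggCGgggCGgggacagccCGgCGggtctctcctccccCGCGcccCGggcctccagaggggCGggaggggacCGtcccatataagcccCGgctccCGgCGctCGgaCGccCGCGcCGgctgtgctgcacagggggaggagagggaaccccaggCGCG
VIM: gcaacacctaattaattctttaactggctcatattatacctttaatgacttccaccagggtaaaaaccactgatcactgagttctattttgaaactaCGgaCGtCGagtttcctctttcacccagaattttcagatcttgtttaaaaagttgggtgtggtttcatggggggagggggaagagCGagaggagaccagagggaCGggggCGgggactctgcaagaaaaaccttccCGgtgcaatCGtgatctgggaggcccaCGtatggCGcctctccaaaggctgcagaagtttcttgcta

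The SPARC window holds 11 CpG at 61.3% GC, and 45.3% of the 35116 windows of this length hold fewer. That of FN1 holds 38 CpG, with fewer in 90.1% of windows, and that of VIM holds 10, with fewer in 43.6%. ZEB2 had 14 CpG in its window, the median of all windows, while the 2 windows of CDH2 hold 4 and 23 and the 7 windows of ZEB1 hold 7 to 35. SPARC and VIM, with 11 and 10 CpG, had log2FC of 5.47 and -0.08. The E-box letters CACCTG and CAGGTG, which are each other's reverse complement, occur in 2 of the 13 windows, both of ZEB1, and in 20.6% of all windows. The wider form CANNTG, which includes those letters, occurs once in the SPARC window, as CAGATG, and in 68.7% of all windows. DNA methylation was not measured in these libraries, and a match of letters is a description only. RefSeq windows were read for 6 of the 10 genes. Those of CDH1, SNAI1, SNAI2 and TWIST1 are not reported here, so the CpG and E-box counts do not cover these 4 genes.

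**Figure D1:**
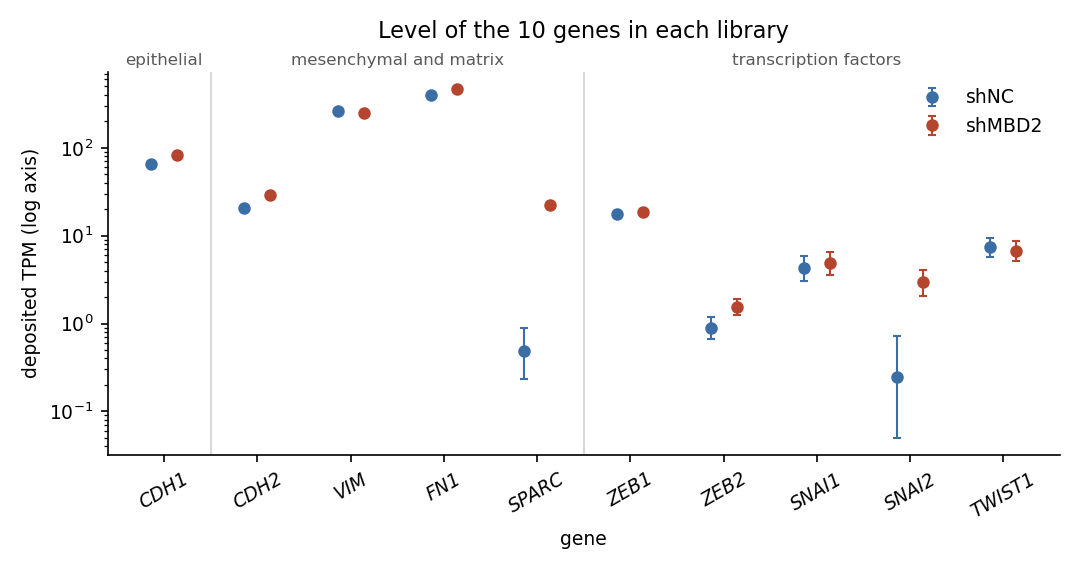
Deposited TPM of the 10 genes (log axis) in shNC and shMBD2, 1 library each; bars are exact 95% Poisson intervals of the counts. SPARC (0.485 and 22.1 TPM) and SNAI2 (0.244 and 2.94 TPM) stand apart between the libraries, while the other 8 genes differ by less than 2-fold.

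CDH1, which encodes E-cadherin, the adhesion molecule of epithelial junctions, was expressed in both libraries and was higher after MBD2 knockdown. It lies at chr16:68737225-68835548 (GRCh38, plus strand). It had 2342 counts in shMBD2 and 1762 in shNC, or 83.8 and 64.7 TPM. The shMBD2 library had 1.32 times the level of the control (log2FC 0.40, interval 0.31 to 0.49).

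The mesenchymal cadherin and the structural genes were also expressed in both libraries, and none of the 3 differed by more than 1 on the log2 scale. CDH2 encodes N-cadherin, which takes the place of E-cadherin in mesenchymal cells, and lies at chr18:27950966-28177446 (GRCh38, minus strand). It had 713 counts in shMBD2 and 499 in shNC, or 28.8 and 20.7 TPM, and was higher after knockdown like CDH1 (log2FC 0.51, interval 0.34 to 0.67). VIM encodes vimentin, the intermediate filament of mesenchymal cells, and lies at chr10:17228259-17237593 (GRCh38, plus strand). It had 3743 counts in shMBD2 and 3933 in shNC, or 246 and 265 TPM. VIM was the sole gene of the 10 whose interval lay below 0 (log2FC -0.08, interval -0.15 to -0.015), and the size of that difference was 1.06-fold. FN1 encodes fibronectin, a matrix protein that integrins bind, and lies at chr2:215360440-215436172 (GRCh38, minus strand). It had 24146 counts in shMBD2 and 20162 in shNC, or 460 and 394 TPM. FN1 had the highest TPM of the 10 genes in both libraries and was higher in shMBD2 (log2FC 0.25, interval 0.22 to 0.28).

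The 5 transcription factors were expressed at lower levels, and SNAI2 was the one that passed 1 on the log2 scale. ZEB1, a zinc finger repressor of epithelial genes at chr10:31318495-31529814 (GRCh38, plus strand), had 671 counts in shMBD2 and 620 in shNC, or 18.7 and 17.8 TPM. It was the highest of the factors in both libraries, and its difference was within the counting error (log2FC 0.11, interval -0.054 to 0.27). ZEB2, its paralog at chr2:144364364-144524583 (GRCh38, minus strand), had 90 counts in shMBD2 and 51 in shNC, or 1.54 and 0.897 TPM. It was higher in shMBD2 (log2FC 0.80, interval 0.30 to 1.34), and on the log2(TPM plus 1) scale the difference was 0.42. SNAI1 encodes Snail, an E-cadherin repressor that is turned over quickly as a protein, and lies at chr20:49982999-49988886 (GRCh38, plus strand). It had 47 counts in shMBD2 and 40 in shNC, or 4.88 and 4.26 TPM, and the libraries were not distinguishable at this depth (log2FC 0.22, interval -0.42 to 0.87). SNAI2 encodes Slug, the paralog of Snail. It had 37 counts in shMBD2 and 3 in shNC, or 2.94 and 0.244 TPM. The ratio of its scaled counts was 12.3, and the 3 control counts leave the log2FC of 3.41 with a wide interval of 1.96 to 5.96; on the log2(TPM plus 1) scale it was 1.66. TWIST1, a basic helix-loop-helix factor of mesoderm at chr7:19020991-19117672 (GRCh38, minus strand), had 64 counts in shMBD2 and 69 in shNC, or 6.72 and 7.43 TPM, without a difference beyond counting error (log2FC -0.12, interval -0.63 to 0.39). Together the 5 factors summed to 34.8 TPM in shMBD2 and 30.6 TPM in shNC.

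**Figure D2:**
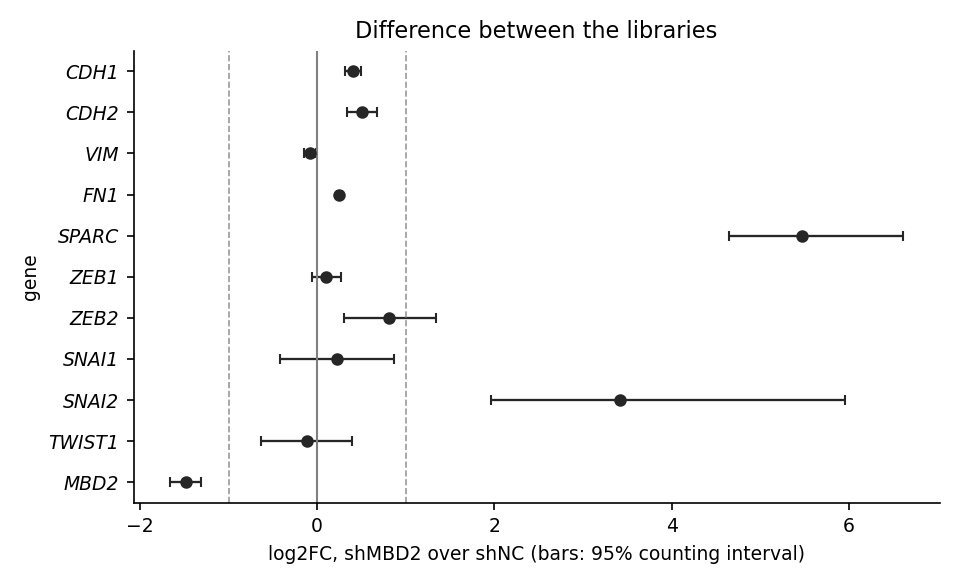
Log2FC of shMBD2 over shNC for the 10 genes and for MBD2, with 95% counting intervals; dashed lines mark -1 and 1. SPARC (5.47) and SNAI2 (3.41) lie past 1, MBD2 (-1.48) lies past -1, and the other 8 genes lie between -0.12 and 0.80.

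Counted over the set, 8 of the 10 genes were higher and 2 lower in shMBD2, with a median log2FC of 0.33 against -0.0082 over all genes. Log2FC was above 1 in 2 of the 10 genes, SPARC and SNAI2, beside 5.48% of the 17545 genes (961), and below -1 in 0, beside 5.07% (890). The interval lay above 0 in 6 of the 10 (CDH1, CDH2, FN1, SPARC, ZEB2 and SNAI2), beside 19.7% of all genes, and below 0 in 1 (VIM), beside 18.4%. Since the set was chosen with these values known, the shares are given for reference, and nothing is read from them.

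**Figure D3:**
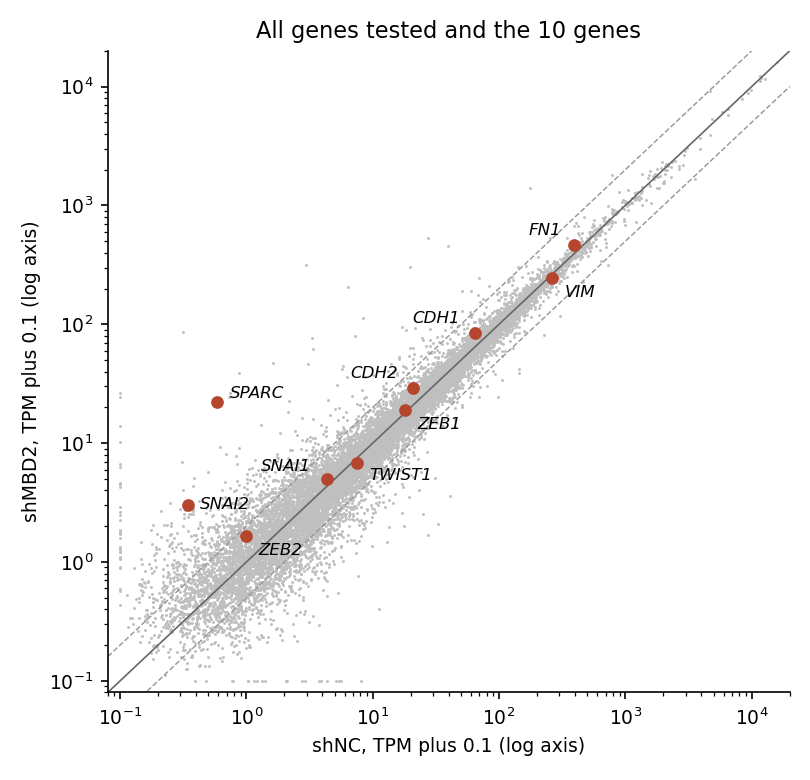
TPM plus 0.1 in shMBD2 against shNC (both log axes) for the 17545 genes (gray) and the 10 genes (red); the solid line marks equal values and the dashed lines a ratio of 2 either way. SPARC and SNAI2 lie above the upper dashed line at the low end of the control axis, in positions 15 and 74 by log2FC. VIM and FN1 lie near the solid line at its high end.

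The order of the levels was compared within each library in TPM, which is per length. In shNC the order was FN1, VIM, CDH1, CDH2, ZEB1, TWIST1, SNAI1, ZEB2, SPARC and SNAI2. Neighbours whose counting intervals overlapped there were CDH2 and ZEB1, TWIST1 and SNAI1, ZEB2 and SPARC, and SPARC and SNAI2. In shMBD2 the first 4 genes held the same places, SPARC stood next and was not distinguishable from ZEB1, and TWIST1, SNAI1, SNAI2 and ZEB2 followed. Of these last, TWIST1 overlapped with SNAI1 and SNAI1 with SNAI2. FN1 and VIM were above CDH1 in both libraries, in TPM by 5.50 and 2.93 times in shMBD2 and by 6.10 and 4.09 times in shNC.

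The epithelial cadherin was then set against the other genes by the reads of each gene per read of CDH1, a ratio that does not depend on the scaling between libraries. For CDH2 it was 0.304 in shMBD2 and 0.283 in shNC, a change within the counting error (log2 change 0.10, interval -0.086 to 0.30). VIM had 1.60 reads per CDH1 read in shMBD2 and 2.23 in shNC (log2 change -0.48, interval -0.59 to -0.37). FN1 had 10.3 and 11.4 (log2 change -0.15, interval -0.24 to -0.057). Both structural genes were thus lower relative to CDH1 after knockdown. Of the factors, ZEB1 was lower relative to CDH1 (log2 change -0.30, interval -0.48 to -0.11), while the intervals of ZEB2 (0.40, -0.11 to 0.94), SNAI1 (-0.18, -0.82 to 0.47) and TWIST1 (-0.52, -1.04 to 0.0017) included 0. SPARC had 0.200 reads per CDH1 read in shMBD2 and 0.00568 in shNC (log2 change 5.07, interval 4.24 to 6.21), and SNAI2 0.0158 and 0.00170 (log2 change 3.01, interval 1.55 to 5.56). SPARC and SNAI2 were higher relative to CDH1, and the genes of the set did not share 1 direction against it.

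**Figure D4:**
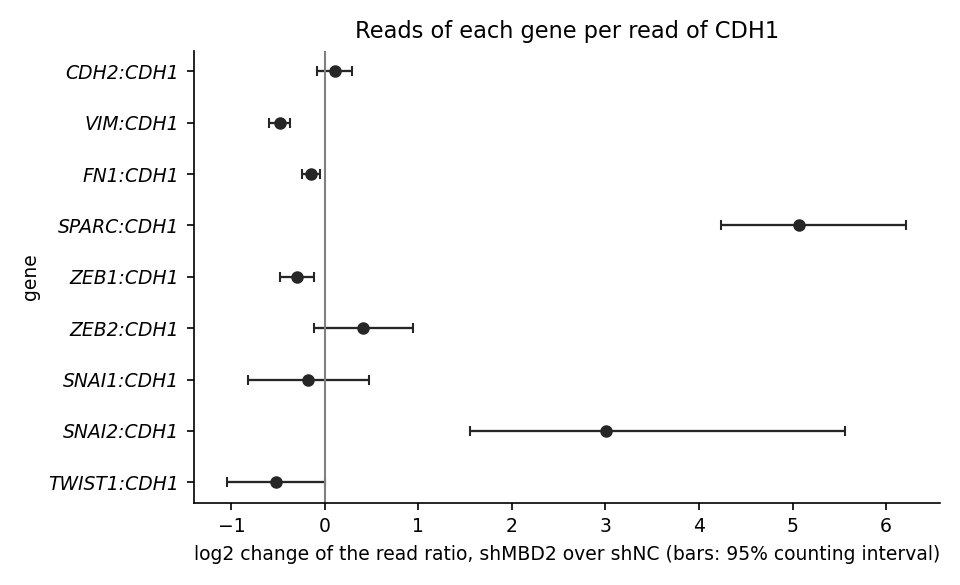
Log2 change of the reads of each gene per read of CDH1, shMBD2 over shNC, with 95% counting intervals. SPARC (5.07) and SNAI2 (3.01) lie above 0, VIM (-0.48), ZEB1 (-0.30) and FN1 (-0.15) below 0, and the intervals of the other 4 genes include 0.

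The reads of some genes could be shared with a partner on the other strand, and the strand setting of the counting is not given in the sources used here. VIM-AS1 had 25 and 22 counts and ZEB1-AS1 53 and 51, in shMBD2 and shNC, beside 3743 and 3933 for VIM and 671 and 620 for ZEB1. Reads of these genes and of their antisense partners cannot be told apart without strand. ZEB2-AS1 and the antisense gene over SPARC, CTB-113P19.1, had 0 counts in both libraries (a count of 0 allows up to 3). RP11-354M1.2, antisense to CDH1, had 0 counts in both as well, and AC015933.2, antisense to CDH2, had 1 and 2. The pseudogene ZEB2P1, at another locus, shares a run of 81 bases with the transcripts of ZEB2, and reads from that run could be counted for either. The longest run that CDH1 shared with another gene was 264 bases (AC099314.1), and that of FN1 was 79 (SNHG4). SPARC shared 302 bases with CLMAT3, CDH2 139 with AC110015.1 and TWIST1 96 with AC003986.2. VIM shared 641 with its antisense partner VIM-AS1 and 359 with AL133415.1. ZEB2 shared 502 with ZEB2-AS1 and ZEB1 248 with ZEB1-AS1. Runs were searched on both strands. Reads from these runs could likewise be counted for either gene.

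ZEB1 and ZEB2 are known targets of the miR-200 family, epithelial miRNAs that hold both factors down. The mature sequences from RefSeq (GRCh38.p14) are shown with the seed, bases 2 to 8, in capitals. They fall into 2 seed groups, and the 3′ UTRs of the set were searched for the exact complement of each seed.
miR-200b-3p: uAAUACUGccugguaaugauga
miR-200c-3p: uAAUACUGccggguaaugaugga
miR-429: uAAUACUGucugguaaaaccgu
miR-200a-3p: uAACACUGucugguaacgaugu
miR-141-3p: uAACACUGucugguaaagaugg

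In the longest annotated 3′ UTR of each gene (GENCODE 29), ZEB1 holds 6 matches to the seed of miR-200b (CAGTATT) and 8 to that of miR-200a (CAGTGTT), over 6065 bases. ZEB2 holds 5 and 4 over 5370 bases. FN1 holds 2 CAGTATT and SNAI2 holds 1, and the other 6 genes hold neither. At least 1 CAGTATT is found in 16.7% of the 19462 genes with a 3′ UTR, and at least 1 CAGTGTT in 19.2%. As many CAGTATT as in ZEB1 are found in 0.0154% of these genes and as many as in ZEB2 in 0.0360%, and for CAGTGTT the shares are 0.0103% and 0.308%, while 862 genes have a 3′ UTR at least as long as that of ZEB1. The 5 precursor genes of the family had 0 counts in both libraries, and mature miRNAs were not measured here. The 2 genes with many matches, ZEB1 and ZEB2, had log2FC of 0.11 and 0.80.

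Other genes of the pathway were read from 14 lists, which overlap in some members. Of 22 further mesenchymal markers tested, 7 had a log2FC above 1 and 0 below -1, beside 5.48% and 5.07% of all genes, and the median was 0.36, with 15 higher and 7 lower. The interval lay above 0 in 13 of them and below 0 in 3, beside 19.7% and 18.4% of all genes. Tenascin C (TNC), a matrix protein of remodeling tissue, had 146 counts in shMBD2 and 23 in shNC (log2FC 2.63). Of the collagens, COL6A1 had 869 and 204 counts (2.08), COL5A1 1990 and 700 (1.50) and COL1A1 308 and 124 (1.30). The gelatinase MMP2 had 155 and 56 counts (1.45), and the collagen cross-linking enzyme LOX had 46 and 17 (1.40). These genes are named for passing 1. COL5A2, the collagen of the list with the most counts, was lower in shMBD2 (3569 and 4295 counts, -0.28), as was the receptor AXL (1699 and 2252 counts, -0.42). The 2 genes of the list with the highest TPM in shNC were S100A4, at 450 and 708 TPM (log2FC -0.63), and MSN, which encodes the membrane linker moesin, at 410 and 373 TPM (0.16). All 10 fibroblast markers are also on the list of further mesenchymal markers. They summed to 32 counts in shMBD2 and 29 in shNC. FAP was at 0 in both, COL1A2 at 0 and 1, COL3A1 at 1 and 6, and DCN at 1 and 1. THY1, with 14 and 6 counts (1.15), was the 1 of the 3 tested fibroblast markers above 1, beside 5.48% of all genes. It is also counted among the 7 further mesenchymal markers above 1. The interval of THY1, -0.26 to 2.88, included 0.

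Of 21 further epithelial markers tested, 1 was above 1 and 1 below -1, shares near the 5.48% and 5.07% of all genes, and the median was -0.027. The interval lay below 0 in 9 of them and above 0 in 3, beside 18.4% and 19.7%. The genes past 1 in either direction were ST14, with 11 and 4 counts, and CRB3, with 25 and 54. The keratins KRT8 and KRT7 were lower in shMBD2, with KRT8 at 3006 and 3890 TPM (log2FC -0.34) and KRT7 at -0.17 on the same scale. The 3 genes with intervals above 0, CLDN4 (0.97), KRT19 (0.75) and MUC1 (0.67), were higher, as CDH1 was. Among 14 tested transcription and splicing factors that hold the epithelial state, 2 were above 1 and 0 below -1, beside 5.48% and 5.07%. The 2 were EHF with 517 and 214 counts (1.26) and ESRP1 with 15 and 7. The interval lay below 0 in 5 of the 14 and above 0 in 2, beside 18.4% and 19.7% of all genes. ELF3 (59.4 and 92.8 TPM, log2FC -0.62) and KLF5 (74.1 and 96.1 TPM, log2FC -0.35), the 2 highest in shNC, were lower. GRHL2, OVOL1 and ELF5 had 0 counts in both libraries.

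The SPARC family shares an extracellular calcium-binding domain, and 6 of its 8 genes were tested. Of these 6, 2 were above 1 (SPARC and SPOCK1) and 0 below -1, beside 5.48% and 5.07% of all genes. SPOCK1, a proteoglycan of the family, had 153 counts in shMBD2 and 53 in shNC (log2FC 1.51), and FSTL1 had 2602 and 1743 (0.57). SMOC1, with 319 and 594 counts, was lower (-0.90), so the family had no common direction. Of the 11 cadherins tested, CDH17, the liver-intestine cadherin, was the one gene with at least 100 counts past 1 in either direction (98 and 271 counts, log2FC -1.47), and CDH1 and CDH2 were the 2 highest by TPM in shNC. CDH10, with 17 and 3 counts, was the 1 cadherin above 1, and 1 of 11 passed in each direction, beside 5.48% and 5.07% of all genes. Of 7 intermediate filament genes tested, 2 were higher and 5 lower. Of these 7, 1 was above 1 and 1 below -1, beside 5.48% and 5.07% of all genes. Nestin (NES), above 1, had 271 and 101 counts (1.41), and PRPH, below -1, had 3 and 9. INA, which encodes internexin, had 535 and 559 (-0.07). The interval lay above 0 in 1 of the 7 and below 0 in 2, beside 19.7% and 18.4%. Of 11 receptors and partners of fibronectin tested, 2 were above 1 and 0 below -1, beside 5.48% and 5.07% of all genes. The 2 were SDC4, a heparan sulfate proteoglycan of focal adhesions, with 1065 and 482 counts (1.13), and ITGA4, with 45 and 19. The interval lay above 0 in 7 of the 11 and below 0 in 3, beside 19.7% and 18.4%. The integrin subunits ITGB1 (1671 and 1671 TPM, log2FC 0.03) and ITGB5 (178 and 235 TPM, log2FC -0.38) had the highest TPM of that list in shNC, and CD44 was at 317 and 225.5 TPM (0.52).

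TGF-β is the best known inducer of this programme. Of 19 TGF-β target genes tested, 3 had a log2FC above 1 and 0 below -1, beside 5.48% and 5.07% of all genes, and the median was 0.21. The interval lay above 0 in 11 of them and below 0 in 5, beside 19.7% and 18.4%. PMEPA1, a feedback inhibitor of the pathway, had 5313 counts in shMBD2 and 1612 in shNC (log2FC 1.71), and LTBP2 had 700 and 344 (1.02), beside COL1A1. IGFBP3 was lower, at 341 and 638 TPM (-0.88), and ID1 was at 575 and 594 TPM (-0.02). Of the 19 ligands, receptors and SMADs, LTBP2 was the 1 above 1, beside 5.48% of all genes, and the median was -0.020. The interval lay above 0 in 6 and below 0 in 5, beside 19.7% and 18.4%. The signal transducer SMAD3 was at 187 and 184 TPM (log2FC 0.05) and the receptor TGFBR2 at 157 and 167 TPM (-0.06). Of 13 other transcription factors of the transition that were tested, 2 were above 1, FOSL1 with 354 and 144 counts (1.29) and RUNX2 with 71 and 24, and 1 was below -1, SNAI3 with 4 and 12, beside 5.48% and 5.07% of all genes. TCF12 (57.6 and 60.0 TPM, log2FC -0.03) and SOX4 (55.6 and 47.3 TPM, log2FC 0.26) were the highest of these by TPM in shNC.

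Transcripts of genes that the factors work with were read last. Of 15 corepressors, 0 passed 1 in either direction, beside 5.48% and 5.07% of all genes, and the median was 0.04. Among them 5 intervals lay above 0 and 4 below, beside 19.7% and 18.4%. HDAC1 was at 131 and 146 TPM (log2FC -0.12) and KDM1A at 125 and 104 TPM (0.29). Of 18 genes of the turnover of SNAI1 and SNAI2, 0 passed 1 and the median was 0.00072, with 3 intervals above 0 and 5 below, beside the same shares of all genes. The ubiquitin ligase HUWE1 was at 117 and 111 TPM (0.10) and COPS2 at 78.2 and 72.7 TPM (0.13). Of 16 partners of E-cadherin at the adherens junction, 1 was above 1, PVRL4, with 30 and 14 counts, beside 5.48% of all genes. The median was 0.0090, with 9 higher and 7 lower. The interval lay above 0 in 6 and below 0 in 6, beside 19.7% and 18.4%. CTNNA1, which encodes α-catenin, was at 283 and 317 TPM (log2FC -0.13) and ADAM10, a protease that sheds E-cadherin, at 138 and 209 TPM (-0.57).

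**Figure D5:**
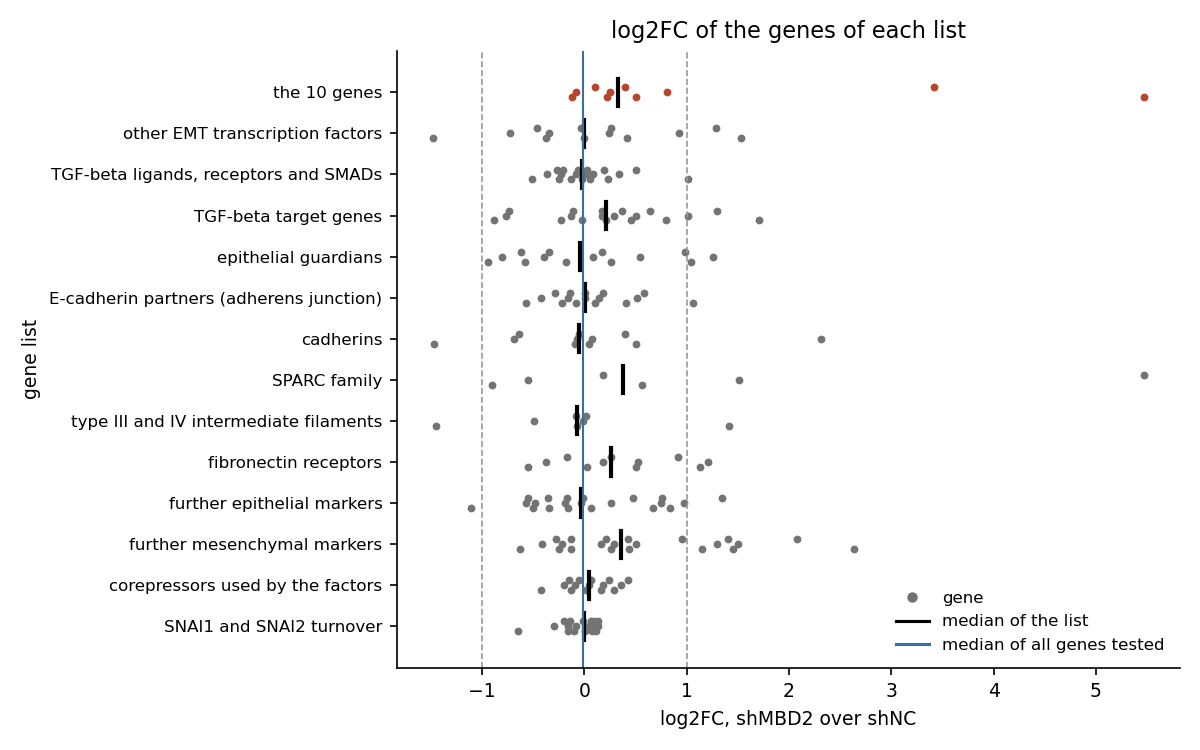
Log2FC of shMBD2 over shNC for the genes with at least 10 counts in each list (gray) and for the 10 genes (red), with the median of each list (black) and of all genes (blue). The median of the further mesenchymal markers is 0.36 and that of the further epithelial markers -0.027, with ranges that overlap (-0.63 to 2.63 and -1.10 to 1.35), and SPARC (5.47) and SNAI2 (3.41) lie to the right of the genes drawn for the other lists, the SPARC family, which holds SPARC, aside; marker and antisense genes are not drawn.

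The genes most like SPARC, by distance on log2(TPM plus 0.1) over the 2 libraries, were PI3, PDZK1IP1 and IL32. PI3, an elastase inhibitor, had 80 counts in shMBD2 and 2 in shNC (24.2 and 0.622 TPM). PDZK1IP1 had 128 and 3 counts (26.5 and 0.636 TPM), and the cytokine IL32 had 309 and 6 (39.1 and 0.780 TPM). All 3 were below 1 TPM in shNC and between 24.2 and 39.1 TPM in shMBD2, a likeness to SPARC that the choice by distance fixes, over 2 libraries alone. Of the 10 leukocyte markers, which summed to 332 counts in shMBD2 and 200 in shNC, PTPRC was at 0 and 1, LYZ, CD52 and CD3E at 0 in both, CD14 at 152 and 126, ITGB2 at 92 and 46, CORO1A at 56 and 19 and LAPTM5 at 29 and 3. The last 4 were those tested, all higher in shMBD2, and their median log2FC was 1.25. Of these 4, 2 were above 1 (CORO1A and LAPTM5), beside 5.48% of all genes. The interval lay above 0 in 3 of the 4, beside 19.7% of all genes. The 8 endothelial markers summed to 1 and 12 counts, with PECAM1 and VWF at 0 in both. The 6 smooth muscle markers summed to 1348 and 1972 counts, most of them of MYLK (1178 and 1821), with CNN1 at 17 and 1. The part of these markers in the differences of the 10 genes was not tested.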

How the data were processed

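RNA of TFK1 cells was sequenced from 1 shMBD2 and 1 shNC library. The authors deposited whole-number read counts per gene, without normalization, and a table of TPM. The submitters' processing notes name fastp, HISAT2 2.1.0, featureCounts, DESeq 1.18.1 and GRCh38.p13, without their roles, and strandedness is not given in the sources used here. Both tables repeat a symbol's values on each of its identifiers, so repeats were removed, which left 56638 genes from 63677 rows, and 46 lines without a gene were dropped. TPM then summed to 1000000 in each library.

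Counts were scaled by TMM (edgeR 4.0.16, R 4.3.3), and log2FC and exact intervals were computed with scipy 1.17.1. Levels were compared in deposited TPM. Since each condition has 1 library, no test was run, and called means a log2FC above 1 or below -1. The log2 change of the ratio to CDH1 was computed with 0.5 added to each count. Its interval is the exact one of the conditional odds ratio of the reads, without that addition. The calculation of log2FC and its interval was tried on simulated counts that held counting error only. The ratios to CDH1, the lists and the sequence searches were not tried in this way. Besides the 10 genes and MBD2, the text names from each list the genes past 1 or -1 that reached 100 counts in the higher library (at most 6) and the 2 highest by TPM in shNC, and the 3 genes most like SPARC; list genes with fewer counts, CD44, COL5A2, AXL, CLDN4, KRT19, MUC1 and marker genes were picked out once their values were known. The 10 genes and the lists were chosen with earlier results of these data known. Alternatives were DESeq2 1.42.0 size factors, total counts, upper-quartile factors, deposited TPM plus 0.1 or 1, priors of 2 and 0.1, and count minimums of 1 and 100.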

Additional observations from a re-analysis of the deposited data

How the results depend on the processing

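Of 77 alternative log2FC values of the 10 genes and MBD2, 73 moved by less than the counting interval, as did 18 of 18 ratios to CDH1, and none changed sign. With TPM plus 1, which understates the change of low genes, SPARC was at 3.96, SNAI2 at 1.66, ZEB2 at 0.42 against 0.80, and FN1 at 0.22265; with TPM plus 0.1, FN1 was at 0.22313. Over the 7 settings of each, SNAI2 ranged from 1.66 to 3.57 and SPARC from 3.96 to 5.53. In every one of these settings 2 of the 10 genes were above 1, 0 below -1, 8 higher and 2 lower. The count of all genes above 1 was 374 with TPM plus 1, 4523 with at least 1 count and 213 with at least 100 counts, and that below -1 was 340, 4303 and 127. The size factors of DESeq2 were equal in both libraries, and the median log2FC of all genes stayed between -0.033 and 0 over the settings.

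No paired analysis was possible because there was only 1 library for shMBD2 and 1 for shNC. SNAI1, SNAI2, ZEB2 and TWIST1 had at most 90 counts in a library, and of these the counting interval of SNAI1 and TWIST1 included 0. The spread between cultures or between shRNAs cannot be estimated from these data.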
